A study of Mus musculus with 4 samples.

Results

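Cultured testis was followed from 2 to 7 days by comparing a 7-day with a 2-day single-cell RNA sequencing library of mouse testis fragments kept in organ culture. A barcode was used when 500 or more genes were detected in it and mitochondrial counts made up no more than 20%. That left 7130 barcodes at 2 days and 4909 at 7 days, together 12039 of the 23670 barcodes that passed in all 4 libraries of the series. The comparison ran over all genes, and groups of genes were then described by pathway and by cell class. Each group had 1 library, so nothing here has a replicate check and no test between groups was run.

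The study set organ culture beside testes that developed in the body. All mice were C57BL/6 and carried an Acr-Gfp transgene, in which the promoter of the acrosin gene drives green fluorescent protein in germ cells. For both culture groups, testes of pups aged 7 days postpartum (dpp) had their capsule removed and were cut into 3 to 4 fragments. The fragments rested on 1.5% agarose gel in α-MEM with 40 mg/mL AlbuMAX, a lipid-rich bovine albumin, under a ceiling of PDMS, a silicone, for 2 or 7 days. Uncultured testes at 9 dpp and at 14 dpp gave the other libraries, and these ages equal the age at explant plus the time in culture. Cells of all groups were released with collagenase I and trypsin and made into Chromium 3′ v2 libraries. How many animals each library pooled is not given in the sources used here, and the transgene's own transcript was not analysed here.

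The immature testis holds germ cells inside cords of Sertoli cells, which are wrapped by contractile myoid cells and set in a stroma with steroid-producing Leydig cells, vessels and macrophages. In the weeks after birth, spermatogonia of the first wave enter meiosis, pair their chromosomes along a protein scaffold called the synaptonemal complex, and then reach pachytene, when many testis-specific genes come on. Cutting a tissue is an injury. Injured and immune-activated tissues make acute phase proteins, chemokines and interferon-stimulated genes, and stromal cells and macrophages are common sources of them.

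The kept barcodes held 33799069 counts of unique molecular identifiers (UMIs, 1 per captured transcript) at 2 days and 38192203 at 7 days. The median barcode had 3668.5 UMIs and 1728 genes at 2 days, and 5646 UMIs and 2377 genes at 7 days. The left-out barcodes numbered 580 and 240, and on the gene count the threshold lay between 499 and 500 genes at 2 days and between 498 and 503 at 7 days. Mitochondrial genes made up 5.45% and 5.17% of the kept UMIs. The 2 cultures shared 37 barcode sequences, 0.519% of the 2-day and 0.754% of the 7-day barcodes, and the other pairs of libraries shared 30 to 79. A doublet caller marked 253 barcodes (3.55%) at 2 days and 93 (1.89%) at 7 days, and these were kept.

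Clustering both cultures together gave cells of the classes a testis holds, each named from marker genes. Germ-like cells were 2922 of the 7130 barcodes at 2 days (41.0%, exact Clopper-Pearson 95% interval 39.8 to 42.1) and 2624 of 4909 at 7 days (53.5%, 52.0 to 54.9). Sertoli-like cells were 1328 (18.6%, 17.7 to 19.5) and 562 (11.4%, 10.6 to 12.4). Cluster 9, with a median of 1226.5 UMIs, gave 536 and 24 of these and kept no class name when doublet calls were removed or each library was clustered alone. Without it the Sertoli-like shares were 11.1% (792 cells, 10.4 to 11.9) and 10.96% (538 cells, 10.1 to 11.9), so the difference in share rests on that cluster. Stromal or myoid-like cells were 2616 (36.7%, 35.6 to 37.8) and 1515 (30.9%, 29.6 to 32.2). Leydig-like cells numbered 127 and 101, pericyte-like cells 56 and 49, endothelial-like cells 66 and 24 and macrophage-like cells 15 and 25. Of the defining genes, which also served to name the classes, Ddx4, a germ cell RNA helicase, had a CPM (its UMIs over all UMIs, scaled to a fixed total) of 213 and 253 in germ-like cells at 2 and 7 days and of 10.9 and 12.6 in Sertoli-like cells. Sox9, the Sertoli cell transcription factor, was at 489 and 491 CPM in Sertoli-like and at 3.10 and 1.37 in germ-like cells. These intervals cover counting error only, and dissociation and capture also set which cells enter a library.

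Depth moved with the classes. The median germ-like cell had 3480.5 UMIs at 2 days and 6431 at 7 days, and the median Sertoli-like cell 3513 and 9387.5, or 7315 and 9624.5 without cluster 9, while the stromal or myoid-like median was 3780.5 and 4109. The germ-like share of all UMIs was therefore 36.2% at 2 days and 55.5% at 7 days, and the stromal or myoid-like share 34.8% and 18.7%. In sums over a whole library, fewer cells of a type and less RNA per cell cannot be told apart. For most lists a value within classes or with the class mix held fixed is therefore given beside the whole-library value, and the plot of list medians shows the latter for all 30. The clusters that held a class also differed: most Sertoli-like cells were in clusters 3 and 9 at 2 days (775 and 536 cells) and in clusters 12 and 3 at 7 days (363 and 175). Most stromal or myoid-like cells were in clusters 2, 4 and 8 at 2 days (1025, 806 and 549 cells) and in clusters 5 and 7 at 7 days (783 and 567). Germ-like cells were mainly in clusters 1 and 0 at 2 days (1129 and 743 cells) and in clusters 0, 10 and 11 at 7 days (687, 454 and 405).

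Across the whole library, the 7-day culture had less transcript of acute phase, chemokine and interferon-response genes and more of meiotic genes. Values are log2 ratios of CPM at 7 days over 2 days, so a negative value is lower at 7 days, with an exact 95% interval for counting error. Of 14744 genes with at least 50 UMIs over both cultures, 1074 (7.28%) were at least 2-fold higher at 7 days and 656 (4.45%) at least 2-fold lower. With the class mix held fixed, these counts were 864 and 532 of the 14744. The median over all genes was 0.08, and the 5th and 95th percentiles were -0.94 and 1.31. A difference of 4-fold or more was seen for 414 genes higher and 113 lower, and one of 10-fold or more for 195 higher and 33 lower. Ribosomal protein genes, 80 in all, had a median of -0.01, and the 13 mitochondrially encoded genes one of 0.03.

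**Figure D1:**
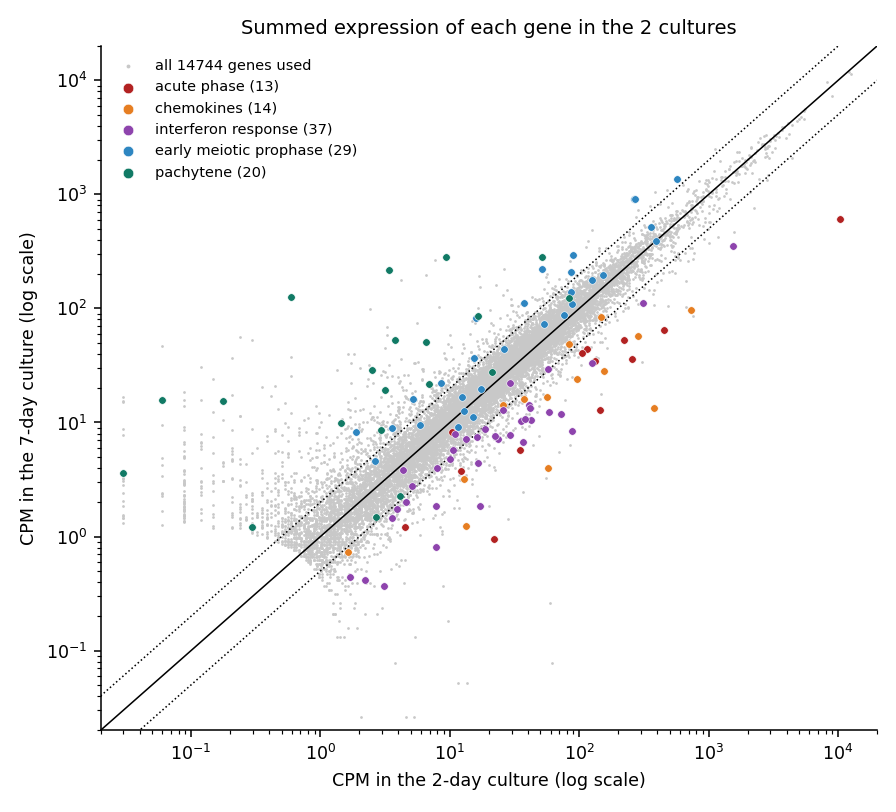
Each point is 1 of the 14744 genes, with its CPM in the 2-day culture (log axis) against its CPM in the 7-day culture (log axis). A library with no UMI is drawn at the floor of 3 UMIs, the solid line marks equal levels and the dotted lines a 2-fold difference, and 5 gene lists are coloured. Acute phase, chemokine and interferon-response genes lie below the solid line, with Saa3 furthest right at 10298 and 602 CPM, and most pachytene genes lie above the upper dotted line.

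The genes furthest below were of 3 kinds: hemoglobins, secreted inflammatory proteins and a few surface or epithelial genes. Hbb-bs, an adult beta globin (chromosome 7, 103826534 to 103828096, minus strand, mm10), had 2071 UMIs at 2 days (61.3 CPM) and none at 7 days. With the 7-day library set to a floor of 3 UMIs it was 780-fold lower, and the upper end of its interval was a log2 ratio of -9.31. Hba-a1, an alpha globin, had 2012 and 10 UMIs (59.5 and 0.262 CPM), a log2 ratio of -7.83. Hba-a2 had 127 and 0 UMIs, 47.8-fold lower at that floor, and Hbb-bt 154 and 1, a log2 ratio of -7.44 (-12.76 to -4.94). The globin copies are near identical, and how reads were split between them is not given in the sources used here. Without culture the globins were at the same order or higher: Hbb-bs had 37.3 CPM at 9 dpp and 130 at 14 dpp. At 2 days 0.771% of barcodes had an Hbb-bs UMI, against 7.95% at 9 dpp. Of the 2071 Hbb-bs UMIs, 1086 were in germ-like and 513 in Sertoli-like cells. Red cells carry these transcripts, and no red cell class was among the classes that had marker lists.

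Saa3, a serum amyloid A protein made outside the liver in acute inflammation (chromosome 7, 46711998 to 46715700, minus strand), had 348063 UMIs at 2 days, or 10298 CPM, and was the most abundant acute phase gene. At 7 days it had 23001 UMIs, or 602 CPM, 17.1-fold less (log2 -4.10, -4.12 to -4.08). It was close to absent without culture, at 1.12 CPM at 9 dpp and 0.792 at 14 dpp, so the 7-day level was far below the 2-day level and far above both uncultured ones. Cxcl5, a chemokine that draws neutrophils (chromosome 5, 90759360 to 90761624, plus strand), went with it, at 378 and 13.4 CPM (-4.82, -4.95 to -4.69). Ptx3, a soluble pattern recognition protein, was at 21.9 and 0.943 CPM (-4.54, -5.07 to -4.06). Il6, the cytokine that drives the acute phase response, had 325 and 7 UMIs (-5.71, -7.04 to -4.65), and Csf3, the granulocyte growth factor, 392 and 2 (-7.79, -10.84 to -5.93). Krtdap, a gene of differentiating keratinocytes (chromosome 7, 30787896 to 30791097, plus strand), had 459 and 2 UMIs (-8.02, -11.07 to -6.16). Reg3b, an antibacterial lectin, had 181 and 5 UMIs (-5.35), and Ly6d, a surface protein of the Ly6 family, 180 and 1 (-7.67, -12.98 to -5.17).

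The genes furthest above were nearly all genes of the testis germ line or unstudied transcripts. Ldhc, the lactate dehydrogenase subunit of spermatocytes and sperm (chromosome 7, 46861203 to 46878142, plus strand), had 20 UMIs at 2 days and 4815 at 7 days, 0.592 and 126 CPM (7.74, 7.11 to 8.45). Adam2, a sperm surface protein (chromosome 14, 66027329 to 66077733, minus strand), had 2 and 595 UMIs (8.04, 6.18 to 11.09). Pdcl2, a phosducin-like protein (chromosome 5, 76312115 to 76331156, minus strand), had 8 and 2137 UMIs (7.89), and Zmynd10, which helps assemble ciliary dynein arms, 1 and 640 (9.15, 6.66 to 14.45). Spata4, a spermatogenesis-associated gene, had 4 and 1173 UMIs (8.02). Long non-coding RNAs were among them: 1700008K24Rik (chromosome 17, 49112263 to 49113535, minus strand) had 2 and 1792 UMIs (9.63, 7.78 to 12.68), and AC125141.3 (chromosome 17, 27354111 to 27367492, plus strand) had none at 2 days and 532 at 7 days, at least 157-fold higher. The other genes chosen by the same rule were A830018L16Rik (7.48), 1700011I03Rik, 4930568E12Rik, 1700029M20Rik and 4922502D21Rik, with 1 to 10 UMIs each at 2 days and 573 to 2021 at 7 days. Acr itself, whose promoter drives the transgene, had 1 UMI at 2 days and 138 at 7 days (6.93, 4.43 to 12.25), and 0.0661 and 5.39 CPM at 9 and 14 dpp.

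As CPM sum to a fixed total, the same 115964 CPM were lost and gained over all genes between 2 and 7 days. The 8 genes with the largest loss made up 17.6% of it: Saa3, Sparc (a matrix protein that binds collagen, 4423 and 2099 CPM), B2m (the light chain of MHC class I, 2246 and 766), Igfbp7 (2807 and 1330), Actb (2857 and 1491), Ifitm3 (an interferon-induced antiviral protein, 1543 and 353), Lgals1 (1579 and 467) and Gstm1 (2464 and 1358). The 8 with the largest gain made up 6.16%: the nuclear RNA Malat1 (8145 and 9744 CPM), the chaperone Hsp90aa1 (1121 and 2501), Sycp3 (566 and 1353), Rps12 (1221 and 1976), Rps29 (1665 and 2337), Apoe (a lipid carrier, 382 and 1045), Sycp1 (265 and 911) and Rplp1 (2484 and 3131). The 8 largest losses thus took a larger share than the 8 largest gains.

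All 13 acute phase genes that passed the UMI minimum, of 15 in the list, were lower at 7 days, 12 of them at least 2-fold, with a median of -2.08 beside 0.08 over all genes. Orm1 and Orm2 had too few UMIs. Lcn2, which withholds iron from bacteria, was at 145 and 12.8 CPM (-3.50), and Hp, haptoglobin, which binds free hemoglobin, at 451 and 65.3 (-2.79). Serpina3n, a serine protease inhibitor, was at 254.5 and 36.2 (-2.81), and Cp, the copper-carrying ferroxidase ceruloplasmin, at 223 and 52.8 (-2.08). Lbp, which hands bacterial lipopolysaccharide to its receptor, was at 114 and 44.2 (-1.37, and -0.62 at a fixed class mix). Slpi, a protease inhibitor of epithelia, was at 10.3 and 8.30 CPM (-0.31), the smallest difference of the list in the whole library, but had a ratio of -2.85 at a fixed class mix. Hp was at 0.132 and 0.0517 CPM at 9 and 14 dpp, below its level in either culture. The list median was -1.96 with the class mix held fixed.

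Chemokines were lower throughout: all 14 that passed, of 16, with 11 at least 2-fold and a median of -1.999. Ccl2, the main attractant of monocytes, was at 732 and 96.6 CPM (-2.92), and Ccl7, which shares its receptor, at 154 and 28.5 (-2.43). Ccl5, which attracts T cells, was at 57.4 and 4.01 (-3.84), and Cxcl1, a ligand of the neutrophil receptor, at 283 and 57.0 (-2.31). Cxcl12, a stromal factor made without inflammation, was at 147 and 84.4 (-0.80), and its ratio was 0.04 at a fixed class mix. Ccl2 without culture was at 1.41 and 1.55 CPM, so the 7-day culture remained above both.

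Cytokines and targets of NF-kB, a transcription factor switched on by danger signals, had a median of -1.001, with 28 of 30 lower, 15 of them at least 2-fold, and 1 at least 2-fold higher. With the class mix held fixed the median was -0.53, with 8 of 30 at least 2-fold lower, and within classes it was -0.60 in the stromal or myoid-like (5 of 25), -0.55 in the Sertoli-like (5 of 21) and -0.30 in the Leydig-like class (1 of 12). Il33, an alarm cytokine held in nuclei, was at 70.1 and 5.50 CPM (-3.67), and Nfkbia, the inhibitor that NF-kB itself induces, at 429 and 178 (-1.27, and -0.78 at a fixed class mix). The adhesion molecules Icam1 (65.1 and 42.1, -0.63) and Vcam1 (218 and 164, -0.40) and the factor's own subunits Rela (-0.33) and Nfkb1 (-0.29) differed by less than 2-fold, and the fixed mix turned the sign of Icam1 (0.03), Vcam1 (0.32) and Nfkb1 (0.09). Il1rn, the natural antagonist of interleukin 1, was at 1.27 and 5.05 CPM (1.99), but had a ratio of 0.16 at a fixed class mix, where no member was at least 2-fold higher.

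Some promoters of the acute phase and chemokine genes hold letters that NF-kB is known to bind. In RefSeq promoter windows (build GRCm38.p6, the 250 bases before each start), the motif GGGNNTTTCC on either strand was in 5 of the 19 list members with a window (26.3%), against 201 of 11200 genes compared here (1.79%) and 447 of 27025 genes in the table (1.65%). Saa3, Ptx3, Lcn2 and Cxcl9, the members with a window that were furthest below, had no match. Serpina3n and Cxcl1 are shown as the 2 furthest below of the 5 with the motif. The lines give the 250 bases before the start, 5′ to 3′ on the gene's strand, with the motif in capitals.
Serpina3n, chr12:104406458-104406707, plus strand: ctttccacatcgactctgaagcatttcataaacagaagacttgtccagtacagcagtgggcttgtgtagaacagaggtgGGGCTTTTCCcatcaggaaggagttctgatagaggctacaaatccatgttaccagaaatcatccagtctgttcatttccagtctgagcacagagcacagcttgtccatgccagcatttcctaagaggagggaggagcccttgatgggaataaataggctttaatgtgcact
Cxcl1, chr5:90890995-90891244, plus strand: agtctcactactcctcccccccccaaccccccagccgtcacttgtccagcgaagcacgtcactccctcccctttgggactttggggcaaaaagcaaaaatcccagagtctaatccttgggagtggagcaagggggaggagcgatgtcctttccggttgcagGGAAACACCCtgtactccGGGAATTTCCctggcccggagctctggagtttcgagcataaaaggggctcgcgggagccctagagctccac
Serpina3n has 1 match and Cxcl1 2, the first of which is on the other strand. A match is a description of the letters, not a bound site.

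Complement genes were lower in part. Of 12 that passed, 10 were lower, 6 of them at least 2-fold, with a median of -1.06. Cfb, the protease of the alternative pathway, was at 28.0 and 1.41 CPM (-4.31), and C1ra and C1s1, proteases of the classical pathway, had ratios of -1.54 and -1.22. C3, on which the pathways meet, was at 99.5 and 88.6 CPM (-0.17), and C4b at 6.75 and 9.19 (0.45). At a fixed class mix the complement median was -0.49, with 1 of 12 at least 2-fold lower and 1 at least 2-fold higher. Over all 14744 genes, that setting had 532 at least 2-fold lower and 864 higher. The fixed-mix ratios were -0.77 for C1ra, -0.52 for C1s1, 0.61 for C3 and 1.10 for C4b.

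Interferon-response genes were lower without exception among the 37 that passed, of 39 listed, and 28 of them were at least 2-fold lower, with a median of -1.64. Mx2 was not in the files and Oas2 had too few UMIs. Irf7, the transcription factor that amplifies interferon production, was at 87.4 and 8.405 CPM (-3.38). Isg15, a ubiquitin-like protein, was at 72.7 and 11.9 (-2.62), Ifit1, a sensor of foreign RNA ends, at 36.7 and 6.76 (-2.44), and Oas1a, which activates RNA decay, at 3.08 and 0.367 (-3.07). Bst2, a tether that holds virions at the cell surface, was at 311 and 111 (-1.48). Parp14 was at 4.35 and 3.85 (-0.18), the smallest difference. Ifit3 and Ifit3b are close copies and their split is uncertain. At a fixed class mix the median was -1.17, with Bst2 at -0.97 and Parp14 at 0.21.

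Interferon signals act through a promoter element called ISRE, searched here as GAAANNGAAA on either strand. It was in 15 of the 29 interferon-response members with a RefSeq window (51.7%), against 351 of the 11200 genes compared (3.13%) and 936 of all 27025 (3.46%). Irf7, the member furthest below, had no match. Isg15 and Oas1a are shown as the members furthest below among the 15 with the motif. Capitals mark the motif.
Isg15, chr4:156200819-156201068, minus strand: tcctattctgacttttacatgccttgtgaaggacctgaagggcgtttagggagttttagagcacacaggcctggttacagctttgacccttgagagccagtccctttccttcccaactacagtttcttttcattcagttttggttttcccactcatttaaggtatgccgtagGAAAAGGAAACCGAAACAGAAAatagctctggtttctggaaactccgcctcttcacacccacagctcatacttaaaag
Oas1a, chr5:120907526-120907775, minus strand: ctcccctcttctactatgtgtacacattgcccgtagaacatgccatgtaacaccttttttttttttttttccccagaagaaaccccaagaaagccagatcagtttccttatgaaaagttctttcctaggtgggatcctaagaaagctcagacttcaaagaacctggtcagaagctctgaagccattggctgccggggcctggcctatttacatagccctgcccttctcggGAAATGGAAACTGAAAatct
Isg15 has 3 overlapping matches, the first beginning 78 bases before the start, and Oas1a 2, the first beginning 20 bases before it.

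MHC class I genes, which display peptides from inside the cell and respond to interferon, went the same way. All 14 that passed were lower, 10 of them at least 2-fold, with a median of -1.29. With the class mix held fixed the median was -0.89, with 3 of 14 at least 2-fold lower, and B2m (-0.99), H2-K1 (-0.90), Psmb8 (-0.81) and Psmb9 (-0.89) were no longer among these. The heavy chains H2-D1 (1189 and 419 CPM, -1.504) and H2-K1 (742 and 336, -1.14) and the peptide transporter subunit Tap1 (25.5 and 8.77, -1.54) were close to B2m (-1.55). The immunoproteasome subunits Psmb8 (-1.26) and Psmb9 (-1.21) were lower by more than Psmb10 (-0.47). Counts of the H2-Q genes are uncertain because these genes are near copies.

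Lower inflammatory levels were also measured in the summed UMIs of each main cell class. Stromal or myoid-like cells held 92.2% of all Saa3 UMIs at 2 days and 91.8% at 7 days, and their Saa3 level was 27260 CPM at 2 days and 2961 at 7 days (-3.20). The Leydig-like class had 15480 and 1237 CPM of Saa3, the Sertoli-like class 864 and 32.3 and the germ-like class 308 and 17.5. The germ-like ratio for Saa3 (-4.13) was close to that of the whole library (-4.10). The stromal or myoid-like class is also called the stroma here. With every cell thinned to 2000 UMIs, a Saa3 UMI was seen in 84.8% of stromal or myoid-like cells at 2 days and 22.7% at 7 days, and in 41.3% and 2.01% of germ-like cells. Free RNA in droplets can give UMIs of a gene in cells that do not make it, and its part in these shares, and in the lower list values of the germ-like, Sertoli-like and other classes below, was not tested. Unthinned and over the whole library, 73.9% of barcodes had a Saa3 UMI at 2 days and 14.2% at 7 days.

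Of the acute phase genes, Sertoli-like cells had 9 of 9 at least 2-fold lower (median -3.19) and the stroma 9 of 12 (-1.42). Leydig-like cells had 7 of 8 (-2.35) and germ-like cells 7 of 8 (-2.004). Over all genes, the shares at least 2-fold lower and higher were 5.09% and 2.89% in Sertoli-like cells. They were 4.33% and 4.27% in the stromal or myoid-like class, 4.12% and 3.31% in the Leydig-like class and 4.59% and 7.3% in germ-like cells. Hp was at 967 and 281 CPM in stromal or myoid-like, 3297 and 406 in Leydig-like and 47.9 and 1.44 in Sertoli-like cells. Chemokines were at least 2-fold lower for all 11 of 11 members in Sertoli-like cells (-2.28), 10 of 14 in the stroma (-1.42) and 7 of 11 in the Leydig-like class (-1.89). Without doublet calls the acute phase median in germ-like cells was -3.93.

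Interferon-response genes were at least 2-fold lower for 25 of 37 members in the stromal or myoid-like class (-1.28), 15 of 25 in the Sertoli-like class (-1.26) and 7 of 10 in the Leydig-like class (-1.56), but for 5 of 17 in the germ-like class (-0.48). Ifitm3 was at 3852 and 1533 CPM in stromal or myoid-like, 315 and 28.7 in Sertoli-like and 1742 and 223 in Leydig-like cells. MHC class I genes had medians of -0.68 in stromal or myoid-like, -1.46 in Sertoli-like, -1.31 in Leydig-like and -0.29 in germ-like cells. B2m was at 4541 and 2611 CPM in stromal or myoid-like, 1686 and 484 in Sertoli-like and 115 and 93.7 in germ-like cells. Complement had a median of 0.04 in the stroma, with 1 of 11 members at least 2-fold lower, Cfb, and 1 at least 2-fold higher, C4b (9.17 and 41.6 CPM). C3 was at 226 and 435 CPM there, a difference of less than 2-fold. In the other main classes the complement median was lower: -1.83 in Sertoli-like (6 of 9 at least 2-fold lower), -0.89 in germ-like (3 of 6) and -0.85 in Leydig-like cells (2 of 7).

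**Figure D2:**
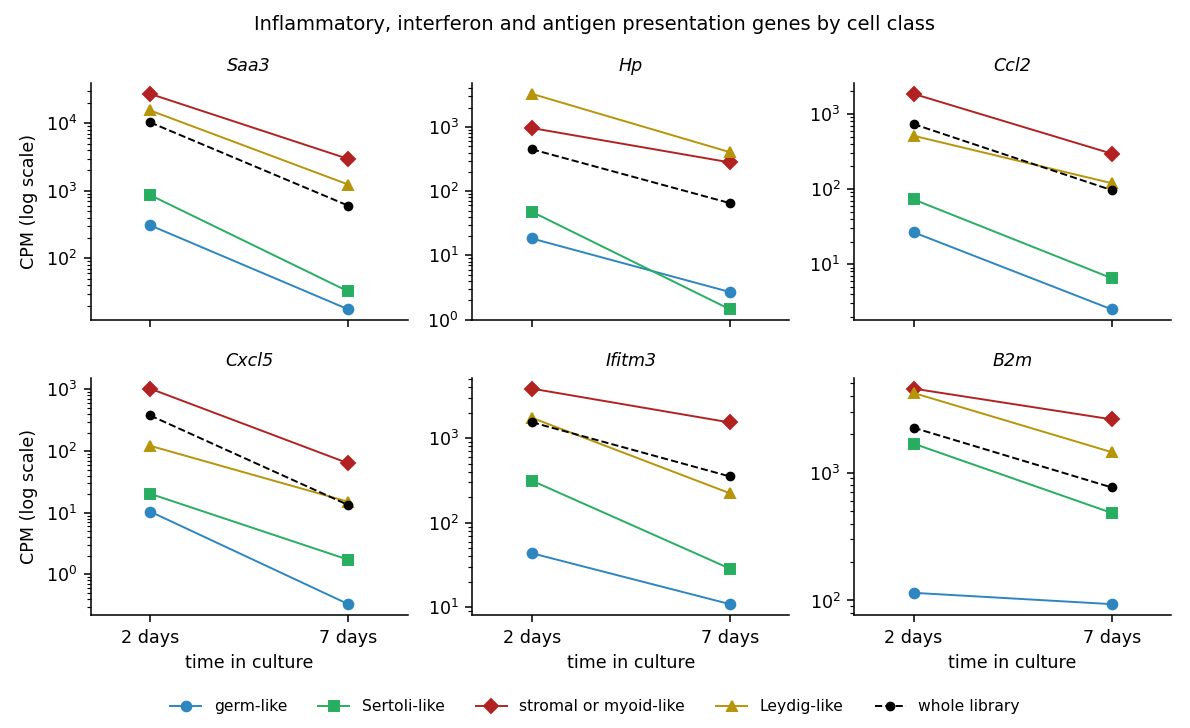
Each panel plots the CPM (log axis) of Saa3, Hp, Ccl2, Cxcl5, Ifitm3 or B2m at 2 and 7 days of culture, with a line for each of 4 cell classes and a dashed line for the whole library. All lines slope down, from 27260 to 2961 for Saa3 in stromal or myoid-like cells and, least steeply, from 115 to 93.7 for B2m in germ-like cells.

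For several of the genes furthest below, most UMIs came from 1 class at 2 days. Stromal or myoid-like cells held 95.9% of the Krtdap UMIs, at 37.4 CPM, and had 0.280 at 7 days. Cxcl5 was at 1029 and 63.4 CPM and Csf3 at 31.7 and 0.280 in these cells, and Cxcl5, Ptx3 and Csf3 led cluster 8, which had 549 cells at 2 days and 17 at 7 days. Reg3b was 97.8% Sertoli-like, at 22.5 and 0.722 CPM. Ly6d was 82.8% Leydig-like, with 156 CPM at 2 days and none at 7 days, at least 51.9-fold lower. Ccl2 was 88.0% stromal or myoid-like at 2 days, at 1849 CPM, and 57.2% at 7 days, at 296 CPM. The few macrophage-like cells had 6382 and 1513 CPM of Ccl2.

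Extracellular matrix genes were mostly lower in the whole library, and within the stroma the collagens were near level. Of 18 collagens 17 were lower, 5 at least 2-fold, with a median of -0.63, and of 27 other matrix and wound genes 24 were lower, 9 at least 2-fold, with a median of -0.58. The fibrillar collagen chains Col1a1 (722 and 338 CPM, -1.10) and Col1a2 (921 and 403, -1.19) were among the lower, and Col6a3 (19.3 and 23.3, 0.27) was the 1 collagen above. With the class mix held fixed the collagen median was 0.02, with Col1a1 at -0.24, Col1a2 at -0.36 and Col6a3 at 1.06, and within stromal or myoid-like cells it was -0.03, with 2 of 18 at least 2-fold lower and 1 higher. Other matrix and wound genes in that class had a median of -0.15, with 5 of 27 at least 2-fold lower and 1 higher, and reached -3.46 for Fbln2, a matrix glycoprotein. Of single genes in the class, Lox, which crosslinks collagen, was at 133 and 37.4 CPM, Timp1, an inhibitor of matrix proteases, at 1868 and 323, and Igfbp5, an IGF-binding protein, at 220 and 17.7. Fbln1, a basement membrane protein, was higher, at 64.6 and 207 CPM. In Sertoli-like cells 8 of 11 collagens were at least 2-fold lower (-1.69), and 4 of 7 without doublet calls (-1.19).

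Genes of contractile cells had a whole-library median of -0.08 over 15 and were higher inside the stromal or myoid-like class (0.79 over 14, with 6 at least 2-fold higher and none lower), and with the class mix held fixed the median was 0.69. Cnn1, calponin of smooth muscle, was at 20.2 and 95.8 CPM in the class, and Acta2, smooth muscle actin, at 2134 and 3641. Cluster 7, led by Cnn1, Car14 and Myh11, held 83 of the 2-day and 567 of the 7-day cells of this class. Many genes of the contractile list also served to name the class, which merges stromal and myoid cells. More myoid cells and more transcript per cell therefore cannot be told apart here, nor with the class mix held fixed. Among the higher single genes of the class were Apoe at 741 and 4747 CPM, Prlr, the prolactin receptor, at 14.2 and 105, and Cyp26b1, which breaks down retinoic acid, at 15.97 and 122. Cluster 5, with 783 cells at 7 days, was led by Apoe and Prlr. Matrix metalloproteases and their inhibitors had a median of -0.68 in the whole library and 0.15 in the class, with 4 of 17 at least 2-fold lower and 4 at least 2-fold higher. Mitosis genes were lower in the class, 21 of 33 at least 2-fold with a median of -1.24, although the whole library had 0 of 33 beyond 2-fold either way and a median of 0.12. Rrm2, which makes deoxynucleotides for replication, was at 45.6 and 9.67 CPM in the class.

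**Figure D3:**
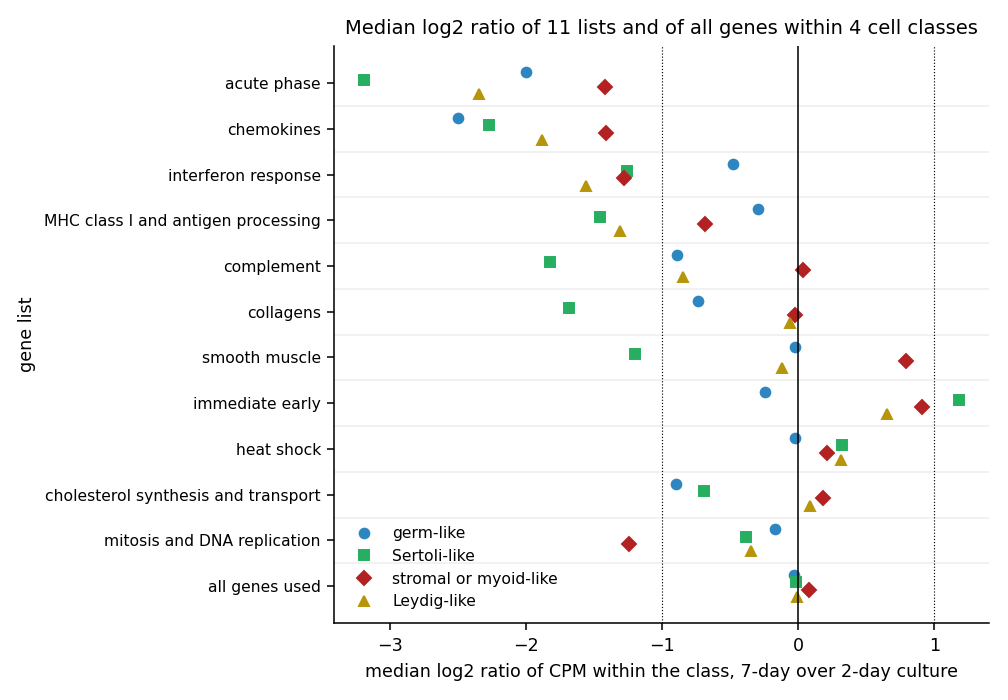
Points give the median log2 ratio of 7-day over 2-day CPM (horizontal axis) for 11 gene lists and all genes used, 1 symbol for each of 4 cell classes, with dotted lines at a 2-fold difference. Acute phase genes and chemokines lie left of the 2-fold line in each class, while collagens (-0.03) and complement (0.04) in stromal or myoid-like cells lie near 0.

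Immediate early genes, switched on within minutes of a stimulus and also during tissue dissociation, were higher at 7 days: 16 of 18, of which 3 at least 2-fold, with a median of 0.41. Fos was at 354 and 798 CPM (1.17), Atf3, a stress-induced repressor, at 10.9 and 28.2 (1.37, and 0.89 with equal cell weights) and Btg2, which restrains proliferation, at 116 and 227.5 (0.97). Myc was lower, at 34.7 and 22.3 (-0.64). The median was 1.18 in the Sertoli-like class (11 of 18 at least 2-fold higher), 0.91 in the stroma (7 of 18), 0.65 in the Leydig-like class and -0.24 in germ-like cells. In Sertoli-like cells Fos was at 488 and 1900 CPM and Jun at 520 and 1426, and the stroma had 607 and 2019 CPM of Fos.

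Heat shock genes had a median of 0.29 over 13, with the inducible Hsp70 gene Hspa1a at 116 and 391 CPM (1.75) in the whole library. Within classes Hspa1a was at 256 and 1572 CPM in stromal or myoid-like, 60.5 and 319 in Sertoli-like and 265 and 783 in Leydig-like cells. Hspa1a and Hspa1b are near copies, and their split is uncertain. The small heat shock protein Cryab was lower, at 46.5 and 17.2 CPM (-1.43, and -0.94 at a fixed class mix). Hsp90aa1 was at 2190 and 4014 CPM in germ-like cells. How long each tissue spent in dissociation is not given in the sources used here, and its part in these values was not tested.

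Genes of the unfolded protein response had a median of 0.20 over 15. The highest 2 were chaperones of the endoplasmic reticulum: Calr at 474 and 1088 CPM (1.199) and Hspa5 at 635 and 1209 (0.93), and in germ-like cells Calr was at 450 and 1543 and Hspa5 at 791 and 1739. The amino acid response genes Trib3 (-0.91), Chac1 (-0.83) and Asns (-0.63) were lower. Among the metabolic lists, oxidative stress genes had a median of -0.39, with Nqo1 at 11.1 and 5.29 CPM (-1.07, and -0.57 at a fixed class mix). Glycolysis and hypoxia genes had one of -0.30, with Ldha, the somatic lactate dehydrogenase, at 316 and 151 CPM (-1.06, and -0.70 at a fixed class mix), and cholesterol genes one of -0.52. Of 21 cholesterol genes 18 were lower, 1 of them, the sterol sensor partner Insig1, at least 2-fold (91.3 and 41.7 CPM). In germ-like cells 8 of 21 were at least 2-fold lower (-0.90), with Insig1 at 134 and 48.0, and 1, Apoe, at least 2-fold higher (1.22). Sertoli-like cells had 6 of 21 at least 2-fold lower (-0.70) and Leydig-like cells 0 of 18 (0.09). In the stromal or myoid-like class the cholesterol median was 0.18, with none at least 2-fold lower and 1, Apoe, at least 2-fold higher. Targets of p53 had a median of -0.01.

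Among germ cell genes, those of pachytene stood furthest above at 7 days. Undifferentiated spermatogonia genes had a median of 0.31 over 14, differentiating spermatogonia genes -0.23 over 9, early meiotic prophase genes 0.76 over 29 and pachytene genes 2.69 over 20. The first of these was negative within germ-like cells (-0.26), with the class mix held fixed (-0.12) and with every cell given equal weight (-0.15). The counts at least 2-fold higher were 2 of 14, 2 of 9, 13 of 29 and 16 of 20, with none at least 2-fold lower in any of the 4 lists. A fixed mix gave 2 of 14 undifferentiated, 2 of 9 differentiating and 2 of 20 pachytene genes at least 2-fold lower. Among the stem cell genes Id4, an inhibitor of differentiation, was at 9.20 and 37.0 CPM (2.01) and Nanos3, an RNA-binding protein, at 2.13 and 10.0 (2.23), while Gfra1, the GDNF receptor, was at 2.63 and 3.82 (0.54), but its ratio was -0.28 at a fixed class mix and -0.26 with equal cell weights. Stra8, induced by retinoic acid at meiotic entry, was at 510 and 362 CPM (-0.50, and -1.04 at a fixed mix) and Sohlh1, a transcription factor of spermatogonia, at 86.4 and 57.4 (-0.59, and -1.13). Dmrtb1, which gates the switch from mitosis to meiosis, was at 9.73 and 48.8 (2.33).

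Genes of the synaptonemal complex and recombination were mostly higher in the whole library, where germ-like cells gave more of the UMIs at 7 days. Sycp3, of the lateral elements, was at 566 and 1353 CPM (1.26), Sycp1, the transverse filament, at 265 and 911 (1.78) and Sycp2 at 51.3 and 223 (2.12). Spo11, which cuts DNA to start recombination, was at 5.21 and 16.2 (1.64), while Dmc1, the meiotic recombinase, was at 53.3 and 72.6 (0.45). Meiob, a single-strand DNA-binding protein, was at 15.8 and 82.5 (2.38), and Hormad1, of the unpaired axes, at 90.1 and 291.5 (1.69). Syce2, a central element protein, and Rec8, the meiotic cohesin, had ratios of -0.01 and -0.03. The fixed mix gave -0.53 for Syce2, -0.56 for Rec8, -0.09 for Dmc1, 0.70 for Sycp3 and 1.23 for Sycp1, and a median of 0.22 for early meiotic prophase genes, with 8 of 29 at least 2-fold higher. Genes of the piRNA pathway, which silences transposons, had a median of 0.61, with 10 of 11 higher and 2 at least 2-fold, led by Mov10l1 (51.5 and 123 CPM, 1.25, and 0.71 at a fixed mix). Within germ-like cells their median was 0.11 and none of the 11 was beyond 2-fold, and with the class mix held fixed it was 0.09, again with none.

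Among the 4 germ cell lists, pachytene genes had the largest median. Meig1, a meiosis-expressed gene, was at 9.35 and 283 CPM (4.92), Fabp9, a fatty acid-binding protein of the testis, at 3.40 and 219 (6.01) and Hspa2, the spermatocyte Hsp70, at 51.8 and 282 (2.45). Piwil1, the piRNA-binding protein of pachytene cells, was at 2.52 and 28.9 (3.52), and Mybl1, the transcription factor A-MYB, at 3.14 and 19.3 (2.63). Ybx2, which stores messenger RNA in germ cells, was at 3.79 and 53.3 (3.82) and Crisp2 at 0.178 and 15.5 (6.45). Ccna1 (-0.87) and Aurkc (-0.84) were lower, both at under 5 CPM, and had -1.41 and -1.39 at a fixed mix. Uncultured testes differed in the same direction, with a list median of 2.57 at 14 over 9 dpp: Ldhc was at 1.21 and 283 CPM there, and Adam2 at 0.0165 and 18.3.

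**Figure D4:**
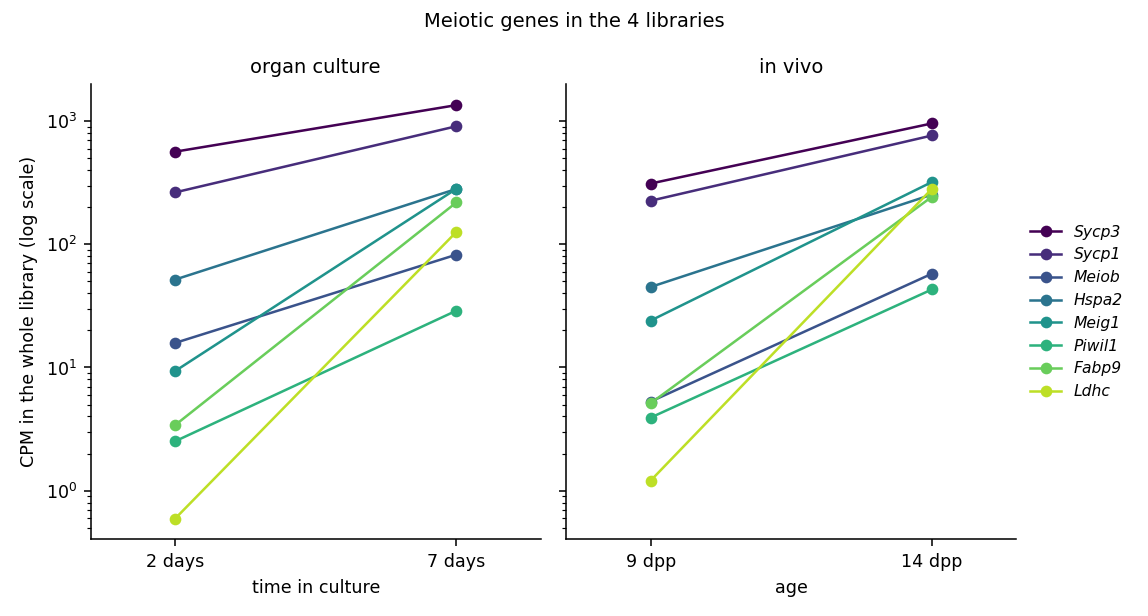
Points give the CPM (log axis) of Sycp3, Sycp1, Meiob, Hspa2, Meig1, Piwil1, Fabp9 and Ldhc in the 2-day and 7-day cultures and at 9 and 14 dpp. Each gene is higher in the later library of its pair, and for Ldhc the values are 0.592 and 126 in culture and 1.21 and 283 without it.

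A-MYB is known to drive pachytene genes, so their windows were searched for AACTGNC on either strand. It was in 2 of the 14 pachytene members with a window (14.3%), against 1277 of the 11200 genes compared (11.4%) and 3271 of all 27025 (12.1%). Ldhc and Piwil1 are shown because they are the 2 members with a match, with the motif in capitals.
Ldhc, chr7:46861013-46861262, plus strand: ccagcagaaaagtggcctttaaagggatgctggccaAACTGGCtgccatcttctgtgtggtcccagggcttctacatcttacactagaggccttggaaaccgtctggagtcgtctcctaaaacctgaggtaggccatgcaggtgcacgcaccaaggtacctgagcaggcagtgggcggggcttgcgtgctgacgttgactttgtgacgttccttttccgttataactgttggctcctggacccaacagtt
Piwil1, chr5:128735996-128736245, plus strand: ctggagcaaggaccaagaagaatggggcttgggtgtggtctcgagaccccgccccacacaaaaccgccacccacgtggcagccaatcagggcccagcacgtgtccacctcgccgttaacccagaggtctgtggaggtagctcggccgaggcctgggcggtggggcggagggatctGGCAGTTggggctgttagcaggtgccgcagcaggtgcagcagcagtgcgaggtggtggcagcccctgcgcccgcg
The Piwil1 match is on the other strand. The share among the members was close to that among all genes.

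Within germ-like cells early prophase genes had a median of 0.22, with 9 of 29 at least 2-fold higher and none lower, and pachytene genes one of 2.61, with 16 of 19 higher and 2 lower. Sycp3 was at 1421 and 2367 CPM in these cells, Sycp1 at 664 and 1596, Meiob at 39.4 and 144 and Hspa2 at 54.1 and 456. Meig1 was at 7.35 and 474, Fabp9 at 8.41 and 379 and Ldhc at 1.47 and 222. With cells thinned to 2000 UMIs, 0.333% of germ-like cells had an Ldhc UMI at 2 days and 9.11% at 7 days, against none of the stromal or myoid-like cells at 2 days (upper limit 0.159%) and 0.352% at 7 days. Unthinned and over the whole library, the share of barcodes with an Ldhc UMI was 0.266% and 10.5%. Differentiating spermatogonia genes had a median of -0.76, with Stra8 at 1279 and 629 CPM and Sohlh1 at 215 and 100, but Dmrtb1 at 24.1 and 84.5. Cluster 14, led by AC125141.3, Gml and A830018L16Rik, had no cells at 2 days and 285 at 7 days, and cluster 21, led by Ldhc and Crisp2, none and 24. These genes helped define the clusters, so their cell numbers are a description.

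Sertoli cell genes had a whole-library median of -0.16 and one of 0.18 within Sertoli-like cells, with members well above and below these. In the class 5 of 24 were at least 2-fold higher, beside 2.89% of all genes used there, and 1 was at least 2-fold lower. Many of these genes, with Rhox5, Amh, Clu, Trf and Cst9 among them, also served to cluster the cells and name the class. The counts are therefore a description. Rhox5, an androgen-driven homeobox gene, was at 2.92 and 48.4 CPM in these cells. Amh, the hormone that immature Sertoli cells make to regress the Müllerian duct, was at 32.2 and 135. In the whole library Amh was at 7.69 and 24.8 CPM (1.69, and 0.94 with equal cell weights), against 203 at 9 dpp and 40.7 at 14 dpp, so the direction differed from that without culture, a difference that was not tested. Clu, clusterin, was at 8284 and 5370 CPM in Sertoli-like cells and Trf, transferrin, at 63.9 and 19.2. Cst9, a cystatin, was at 1082 and 2491. Germ cell transcripts were among the genes furthest above in Sertoli-like cells: Fabp9 at 0.508 and 47.1 CPM, Gml at 0.763 and 31.2, and Ldhc with none and 14.1, 37.1-fold higher at a floor of 3 UMIs. Germ-like cells held 97.5% of the Ldhc UMIs at 7 days, and the part of free or neighbouring RNA in the Sertoli-like values was not tested.

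Leydig-like cells, with 127 and 101 cells, had mixed steroid genes. Star, which brings cholesterol into mitochondria, was at 407.5 and 85.4 CPM, while Cyp11a1, which makes pregnenolone there, was at 3807 and 3242. Hsd3b1, of the next step, was at 1186 and 3154, and Cyp17a1, on the way to androgens, at 39.9 and 140. Lhcgr, the receptor for luteinizing hormone, was at 19.96 and 82.4 and Insl3, a hormone of testis descent, at 136 and 82.4. Of 12 list members 6 were at least 2-fold higher and 1 lower (median 0.48), but in the whole library the median was -0.17. All the steroid genes named above, with Lhcgr and Insl3, also served to name the class, so these counts are a description. Cyp17a1 over the whole library was at 1.27 and 3.77 CPM in culture and at 107 and 54.2 without it, so both cultures lay far below. Other genes of this class far below at 7 days included Hsd11b1, which reactivates glucocorticoids, at 375 and 5.03 CPM, Ren1, renin, at 143 and 2.01 and Ly6a at 285 and 7.04. Those far above were Gas6, a ligand of receptors that clear dead cells, at 698 and 3370, Mt3 at 13.7 and 131 and Bpifb5 at 3.15 and 90.5.

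Macrophage genes were higher in the whole library, 14 of 19 at least 2-fold and 3 lower, with a median of 1.72. Lyz2, lysozyme, was at 6.54 and 198 CPM (4.92), and C1qa, of the first complement component, at 0.740 and 10.4 (3.82). The MHC class II genes Cd74 (23.9 and 5.45, -2.13) and H2-Aa (12.4 and 3.22, -1.94) were lower. These values rest on few cells: 15 macrophage-like cells at 2 days, with a median of 5467 UMIs, and 25 at 7 days, with a median of 33535, gave 0.283% and 1.93% of all UMIs. Within them Lyz2 was at 2187 and 10150 CPM, C1qa at 251 and 537 and Cd74 at 690.5 and 25.8. At a fixed class mix the list median was -0.51, the opposite direction. Spp1, osteopontin, was found in different classes: stromal or myoid-like cells had 546 and 22.3 CPM and Leydig-like cells 493 and 6.03. Macrophage-like cells had none and 7766, 247-fold higher at a floor of 3 UMIs, with 95.5% of the Spp1 UMIs at 7 days.

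Endothelial genes had a median of -0.04 over 14 and pericyte genes one of 0.10 over 8. Vwf, a clotting protein of vessel walls, was at 0.503 and 1.44 CPM (1.52) and Flt1, a VEGF receptor, at 4.73 and 2.28 (-1.06, and -0.76 with equal cell weights). Notch3, a receptor of mural cells, was at 1.69 and 5.03 (1.58), the 1 pericyte gene at least 2-fold higher. The 1 at least 2-fold lower was Higd1b (-1.72, and -2.50 at a fixed class mix). Of the 17 genes of other blood cells 7 passed, 5 of them at least 2-fold lower, with a median of -5.58 set by the globins. S100a8, a gene of neutrophils, was at 0.444 and 1.83 CPM (2.05), but its ratio was -0.56 at a fixed class mix and 0.27 with equal cell weights. The neutrophil genes S100a9 and Ly6g had no UMI at either time, where the floor was 0.0888 CPM at 2 days and 0.0786 at 7 days.

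Set beside the uncultured testes, the lists differed in how far culture and body went together. Meiotic lists had medians of the same sign in both series of libraries (early prophase 0.76 in culture and 1.15 at 14 over 9 dpp, pachytene 2.69 and 2.57). Acute phase genes had -2.08 in culture and -0.39 without it, chemokines -1.999 and 0.14, interferon-response genes -1.64 and 0.20 and MHC class I genes -1.29 and 0.01. The members behind each pair differ, since fewer passed the UMI minimum without culture: 13 and 8 acute phase genes, 14 and 9 chemokines and 37 and 33 interferon-response genes, with 14 MHC class I genes in both. Collagens (-0.63 and -0.69) and other matrix genes (-0.58 and -0.67) were lower in both. Over the 14526 genes measured in both, the log2 ratios had a Pearson correlation of 0.71 and a Spearman correlation of 0.56 across genes, which are not independent replicates. Of 1032 genes at least 2-fold higher in culture among these, 579 were so at 14 over 9 dpp too (56.1%, and 67.5% of the 858 higher there), and 13 were at least 2-fold lower. Of 562 genes lower in culture, 122 were lower at 14 over 9 dpp (21.7%, and 19.9% of the 614 lower there), and 34 were higher. Over all 14526 genes, 858 were at least 2-fold higher and 614 at least 2-fold lower at 14 over 9 dpp. The sums of list CPM at 7 days were still above those of the uncultured testes: 908 CPM for acute phase genes against 47.8 at 9 dpp and 49.2 at 14 dpp, and 409 for chemokines against 110 and 75.2.

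**Figure D5:**
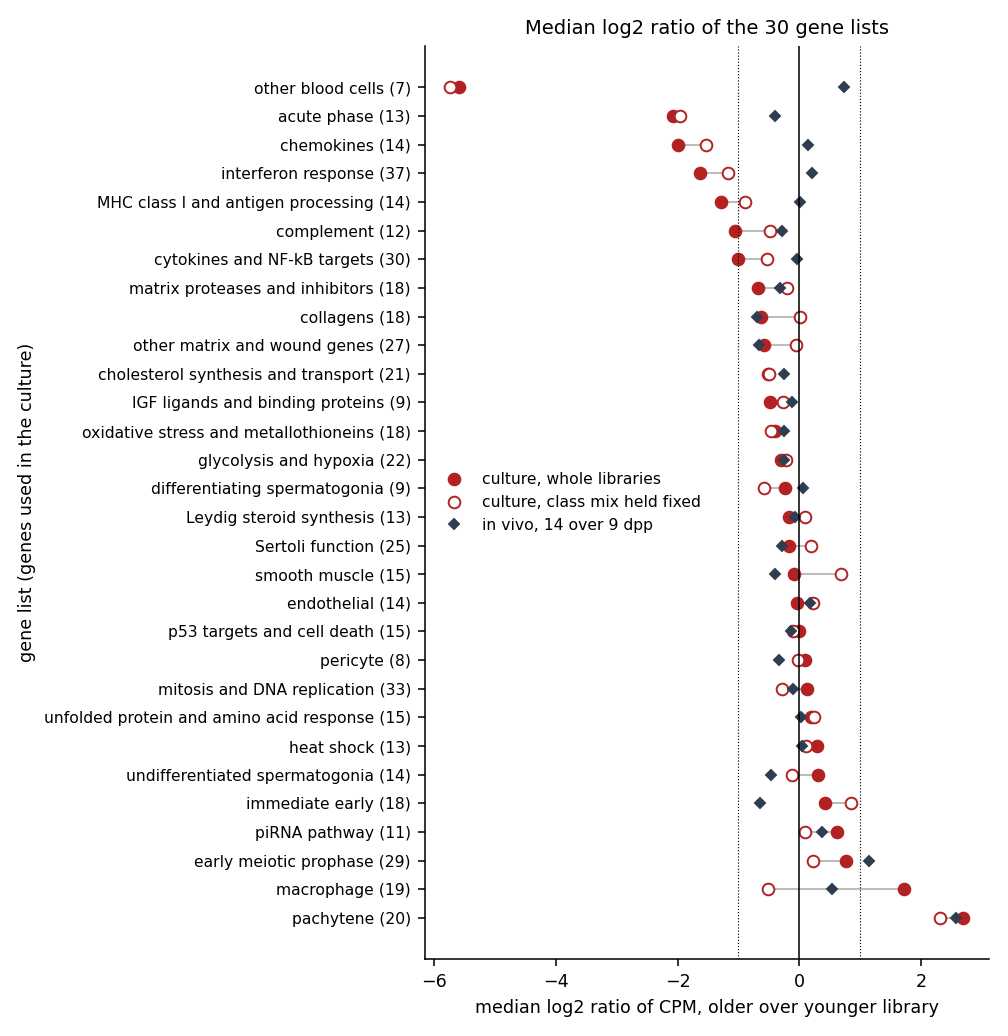
Points give the median log2 ratio of CPM (horizontal axis) of each of the 30 gene lists: filled circles for 7 over 2 days of culture, open circles for the same with the class mix held fixed, and diamonds for 14 over 9 dpp without culture. Pachytene genes lie at 2.69, 2.32 and 2.57 in that order, acute phase genes at -2.08, -1.96 and -0.39, and macrophage genes cross 0 with the class mix held fixed (1.72 and -0.51).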

How the data were processed

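Single-cell RNA was measured in 4 libraries, 1 per group, of cultured testis at 2 and 7 days and of uncultured testis at 9 and 14 dpp, and groups were taken from the labels. The deposited matrices hold counts of UMIs per gene and barcode, not normalized, per the file headers. Cell Ranger 3.0.2 and the mouse build mm10 are named in the submitters' processing notes, and cell calling settings and gene annotation are not given in the sources used here. The 31053 gene identifiers carry 31017 symbols. Where a symbol had several identifiers, as 35 did, their counts were combined, and positions came from GENCODE M21 by identifier (30934 found, 119 not).

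For CPM, the counts of a gene over all kept barcodes of a library were scaled to that library's total. The ratio of 7-day over 2-day CPM has an exact conditional 95% interval for counting error only, checked on simulated data. Genes needed 50 UMIs over both cultures, and a library with 0 UMIs was set to a floor of 3 (0.0888 CPM at 2 days, 0.0786 at 7 days). A difference of 2-fold or more was counted. No test between groups was possible with 1 library each. The value of a list is its median ratio.

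Cells of both cultures were clustered with scanpy 1.11.5 and leidenalg 0.10.2 (2000 variable genes, 30 principal components, 20 neighbours, resolution 1, seed 0), with no correction for library. A cluster took the name of a class with at least 3 of its markers detected, in at least 10% of cells and at a relative level of at least 0.2, unless more of its 10 leading genes marked another class. Clusters under 20 cells stayed unnamed, a rule added after seeing the data, which left 9 cells unnamed. Stromal and myoid clusters were merged. The 4 classes with at least 50 cells in each library were compared. Scrublet calls (expected rate 6%) were kept in the main values, since the comparison takes all barcodes. Shares of cells with a UMI were taken after thinning to 2000 UMIs, leaving out shallower cells: 517 germ-like and 292 stromal or myoid-like cells at 2 days, 133 and 95 at 7 days.

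Named genes were the 12 higher and 12 lower with the interval bound nearest 0 farthest from it, the 8 with the largest gain and 8 with the largest loss in CPM, the 5 higher and 5 lower by the same bound in each class, and list members described by list. Mitochondrial genes were left out. The comparison, the members, the 30 lists and the rules were chosen with earlier results of these data known. Alternatives covered the cell filter, doublets, edgeR 4.0.16 scaling factors, equal cell weights, an added constant, the UMI minimum and the clustering. Promoters were RefSeq windows, matched by symbol for 11200 of 14744 genes.

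Some single genes of the lists are not reported here.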

Additional observations from a re-analysis of the deposited data

Results flagged for a closer look

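Immediate early genes differed in direction between culture and body. Their median log2 ratio was 0.41 (0.30 to 0.54, counting error only) at 7 over 2 days of culture and -0.65 (-0.84 to -0.50) at 14 over 9 dpp, over the same 18 genes. Fos, for example, was at 354 and 798 CPM in culture and at 250 and 178 CPM without it. Each side of both ratios is 1 library, and the difference between the 2 ratios was not tested.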

How the results depend on the processing

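Replicate error is unknown, and all intervals cover counting error only. No paired analysis was possible because each group has 1 library. Among the alternatives for list medians, 228 values stayed within the counting interval and 62 did not, of which 12 had the other sign; for single genes 284 stayed and 106 moved. With the class mix held fixed, an alternative chosen after seeing the data, the macrophage median was -0.51 against 1.72, acute phase -1.96, chemokines -1.53, interferon response -1.17, collagens 0.018, early meiotic prophase 0.22 and pachytene 2.32. It also turned the sign of smooth muscle (0.69), mitosis (-0.28), Sertoli function (0.20), Leydig steroid synthesis (0.09) and endothelial genes (0.22), all outside the counting interval. Undifferentiated spermatogonia (-0.12) and pericyte genes (-0.03) changed sign within it. With every cell given equal weight, acute phase was -1.69, chemokines -1.68, early prophase 0.46 and pachytene 1.84. With 1 added to each CPM, chemokines were -1.83, interferon response -1.46 and pachytene 2.30, and 390 genes were at least 2-fold lower. Acute phase was -2.17 with TMM factors, -2.15 with RLE factors and -2.34 with a minimum of 200 UMIs, and early prophase was 0.90 with at least 1000 genes and at most 10% mitochondrial UMIs. A minimum of 10 UMIs gave 1808 genes at least 2-fold higher and 1108 lower, and one of 200 UMIs gave 630 and 411. TMM factors moved the median over all genes from 0.08 to -0.01 and the share of higher genes among those beyond 2-fold from 62.1% to 54.4% (950 higher, 795 lower), and RLE factors gave 56.0%. Within classes, 345 list medians stayed within the interval and 38 moved. Without doublet calls, or with the libraries clustered separately, the cells of cluster 9 were not named. Without cluster 9 the Sertoli-like medians were -3.25 for acute phase genes, -2.21 for chemokines and 1.11 for immediate early genes. Depth limits genes with few UMIs and the classes with few cells.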

Other observations

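Insulin-like growth factors and their binding proteins, which set how much ligand reaches the receptor, differed between cultures mainly at the binding proteins. Of 9 genes that passed, 3 were at least 2-fold lower at 7 days: Igfbp5 (84.4 and 6.34 CPM, -3.74), Igfbp4 (285 and 108, -1.39) and Igfbp7 (-1.08). Of these, 1 remained so with the class mix held fixed, Igfbp5 (-3.56), while Igfbp4 was at -0.71 and Igfbp7 at -0.34. The ligand Igf1 (126 and 118 CPM, -0.09), the receptor Igf1r (0.08) and the binding proteins Igfbp2 (0.18) and Igfbp3 (0.23) differed by less than 2-fold, and the fixed mix gave 0.58 for Igf1 and -0.27 for Igfbp2. The list median was -1.25 in Sertoli-like cells, with 5 of 9 at least 2-fold lower, but -0.27 with the libraries clustered alone (2 of 8) or without doublet calls (1 of 6), and -0.23 in the stromal or myoid-like class, where 1 of 9 was.

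Among p53 targets and cell death genes, Fas, a death receptor, was at 23.2 and 9.48 CPM (-1.29), but at -0.60 with the class mix held fixed and -0.78 with equal cell weights. In the same list Pmaip1, a BH3-only inducer of apoptosis, was at 3.46 and 11.8 (1.76, and 1.26 with the mix fixed), in germ-like cells at 6.13 and 19.7. Cdkn1a, the p53-induced brake on the cell cycle, was at 35.1 and 25.6 (-0.46), and Mdm2, which degrades p53, at 58.3 and 94.7 (0.70).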
